A study of Glycine max with 34 samples.

Results

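CG-1, GM2S-1 and BG7S-1 are soybean genes for a beta-conglycinin subunit, a 2S albumin and a basic 7S globulin, which are proteins stored in the seed. All their probe sets that the gene table ties to a single gene were taken, without regard to their signal. This gave 3 genes of the 6029 with such a probe set and 4 probe sets, of which 2 read CG-1, 1 reads GM2S-1 and 1 reads BG7S-1. The study measured expression in early maturation seeds of the cultivar Asgrow A3237, 6.0 to 7.0 mm long, from plants grown at 22 °C under days of 16 h and nights of 8 h. After fixation (ethanol with acetic acid) they were embedded in paraffin and sectioned at 8 microns, and 16 compartments were collected with a laser. The embryonic axis gave 6 of them (epidermis, parenchyma, plumule, root meristem, shoot meristem and vascular bundle). The cotyledon gave 5 (epidermis and parenchyma of the abaxial and of the adaxial side, and vascular bundle), and the seed coat gave 5 (aleurone, hilum, hourglass, palisade and parenchyma). A whole seed group was extracted from ground seeds with another RNA reagent, so reagent and tissue cannot be told apart there. Each of the 17 groups has 2 biological replicates, 1 array each, and in all of them 2 ng of RNA was amplified for the Affymetrix Soybean Genome Array. All groups share 1 cultivar and 1 stage, and no treatment was applied.

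Storage proteins are made in bulk while the seed fills, enter the secretory pathway at the endoplasmic reticulum and are laid down in protein storage vacuoles, from which the seedling draws nitrogen and sulfur. Beta-conglycinin is the vicilin-type 7S globulin of soybean, a trimer built from related subunits, and CG-1 encodes the alpha prime subunit. 2S albumins such as GM2S-1 are small, sulfur-rich storage proteins that are cut into disulfide-linked chains. The basic 7S globulin encoded by BG7S-1 is a cysteine-rich protein unrelated to beta-conglycinin, known for its release from soybean seeds in hot water. Cotyledon parenchyma is the main storage tissue of the soybean embryo, while the seed coat layers other than the aleurone are maternal tissue that does not lay down these proteins in bulk.

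A value below is the signal of 1 probe set on 1 array, and signals of different probe sets were not compared, since each binds with its own strength. The background of an array is the 95th percentile of the probe sets for other organisms on it, which lay between 104.3 and 264. Differences are in log2 of the signal plus 16, first-named minus second-named group, with the standard error of the fit, and a difference was called at an adjusted p below 0.05 and a size of at least 1. Where most arrays of both groups were below background, no value is given. The number of seeds behind a replicate, and whether compartments share seeds, is not stated, so p-values hold for these samples. Between regions they rest on the spread among compartment means. In all other comparisons they rest on the spread between replicate arrays, pooled over the 17 groups. Having 2 arrays a group limits the precision. Whether the arrays of groups overlap only describes those arrays. With 2 arrays a group a lack of overlap arises easily by chance, and its share over all probe sets was not counted. A lower signal in a compartment can mean fewer cells with the transcript or less of it per cell, which cannot be told apart here. The maternal coat markers AGL1L and SEP1 summed to 6807 or more on every seed coat array and to 393 or less on every embryo array. AGL1L was still above background on axis epidermis replicate 2 (286) and on cotyledon abaxial epidermis replicate 1 (195.5). The other coat markers were detected in the embryo too. SCB1, highest in the hourglass cells (mean 93968), was above background on both arrays of the cotyledon abaxial epidermis (mean 4272) and of the axis epidermis (mean 897), and the hourglass peroxidase gene Ep (mean 39541 there) was so too, at 403 and 419. SCB1 had been chosen to mark the seed coat parenchyma, where Ep also had a mean of 24206. These 2 markers thus did not set hourglass cells and seed coat parenchyma clearly apart. The cotyledon storage markers GY1 and KTI3 summed to 93798 or more on the 4 cotyledon parenchyma arrays and to 4987 or less on the seed coat arrays, but also to 70087 and 60360.0 on the adaxial and 16528 and 14015 on the abaxial cotyledon epidermis arrays. They summed to 36293 and 39660 in the cotyledon vascular bundle. In the axis parenchyma they summed to 43014 and 32754, of which KTI3 gave 42457.5 and 32287, and in the other axis groups to 9143 or less. Vascular markers were mostly absent from the vascular bundle samples. Of 8 sieve element occlusion genes only SEOF was above background on both arrays of the cotyledon vascular bundle and none was on both arrays of the axis vascular bundle, and the sucrose transporter gene SUT1 was highest in the cotyledon abaxial epidermis. The homeobox gene H1 was high in the shoot meristem (mean signal 10506) and as high in the root meristem, parenchyma and vascular bundle of the axis.

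The genes were read at unequal strength. GM2S-1 was above background on 27 of 34 arrays, CG-1 on 24 by its brighter probe set and on 14 by the other, and BG7S-1 on 7. All 4 probe sets passed the filter on dim probe sets and were tested. BG7S-1 passed it through the few groups in which it is bright, so differences that involve those groups were favoured for it. Over the 16 compartments all 4 differed in an F test (limma, adjusted p = 4.88e-14 and 9.77e-06 for the brighter and the other CG-1 probe set, 3.36e-12 for GM2S-1 and 0.00125 for BG7S-1). Of all 28441 probe sets tested 63.4% did so, and a share that high leaves little to read from the test itself.

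CG-1 followed parenchyma, in the cotyledon as in the axis. Its brighter probe set read 12393 and 10389.6 in the abaxial cotyledon parenchyma, 7757 and 6206 in the adaxial cotyledon parenchyma, and 6633 and 5075 in the axis parenchyma. Every one of these 6 arrays lay above every array of the other 14 groups. A middle range followed, with 4108 and 2223 in the shoot meristem, 2964 and 2654 in the adaxial cotyledon epidermis, 2562 and 2048 in the plumule, 2222 and 1448 in the cotyledon vascular bundle, and 2717 and 1171 in the abaxial cotyledon epidermis. Between neighbours in this order of 5 groups, the arrays overlapped except at the step from the adaxial epidermis to the plumule. The axis epidermis read 517 and 427, the root meristem 322 and 421, and the axis vascular bundle 215 and 548, of which the 215 was below the background of its array. Within the axis, every parenchyma array was thus above every array of the epidermis, the root meristem and the vascular bundle. In the seed coat, 1 aleurone array (164) was above background, and the other 9 arrays read 5.9 to 85.3.

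GM2S-1 was bright in the epidermis and in the shoot pole of the axis, and dim in the axis and adaxial cotyledon parenchyma, though not in the abaxial parenchyma. It read 103300.3 and 93629 in the axis epidermis, 81833 and 61080.0 in the adaxial cotyledon epidermis, and 58659 and 45443 in the abaxial cotyledon epidermis. The plumule read 64440.5 and 58062 and the shoot meristem 56313 and 54905, which put them among the epidermal groups. Among these 5 groups the axis epidermis stood clear of the next in the order, and the plumule of the shoot meristem, while the other neighbours overlapped. All 10 of their arrays lay above those of the other 12 groups. The abaxial cotyledon parenchyma was uneven, with 30969 and 8108, and the cotyledon vascular bundle read 9992 and 7791. The axis vascular bundle read 4044 and 3591, the adaxial cotyledon parenchyma 1867 and 1057, the axis parenchyma 2191 and 867, and the root meristem 722 and 276. All 22 embryo arrays were above background for this gene, and the axis alone spanned the range from 276 to 103300.3.

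BG7S-1 was above background on both arrays in 3 groups, both layers of the abaxial cotyledon and the whole seed. It read 984 and 1184 in the abaxial cotyledon parenchyma, 775 and 265 in the abaxial cotyledon epidermis, and 228 and 364 in the whole seed. The shoot meristem gave 1 array above background (308) and 1 far below it (23.4). The other 13 groups had no array above background, and levels below background were not ordered. Between neighbours in the order of its 3 readable groups, the abaxial parenchyma stood clear of the abaxial epidermis, and the epidermis overlapped the whole seed.

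**Figure D1:**
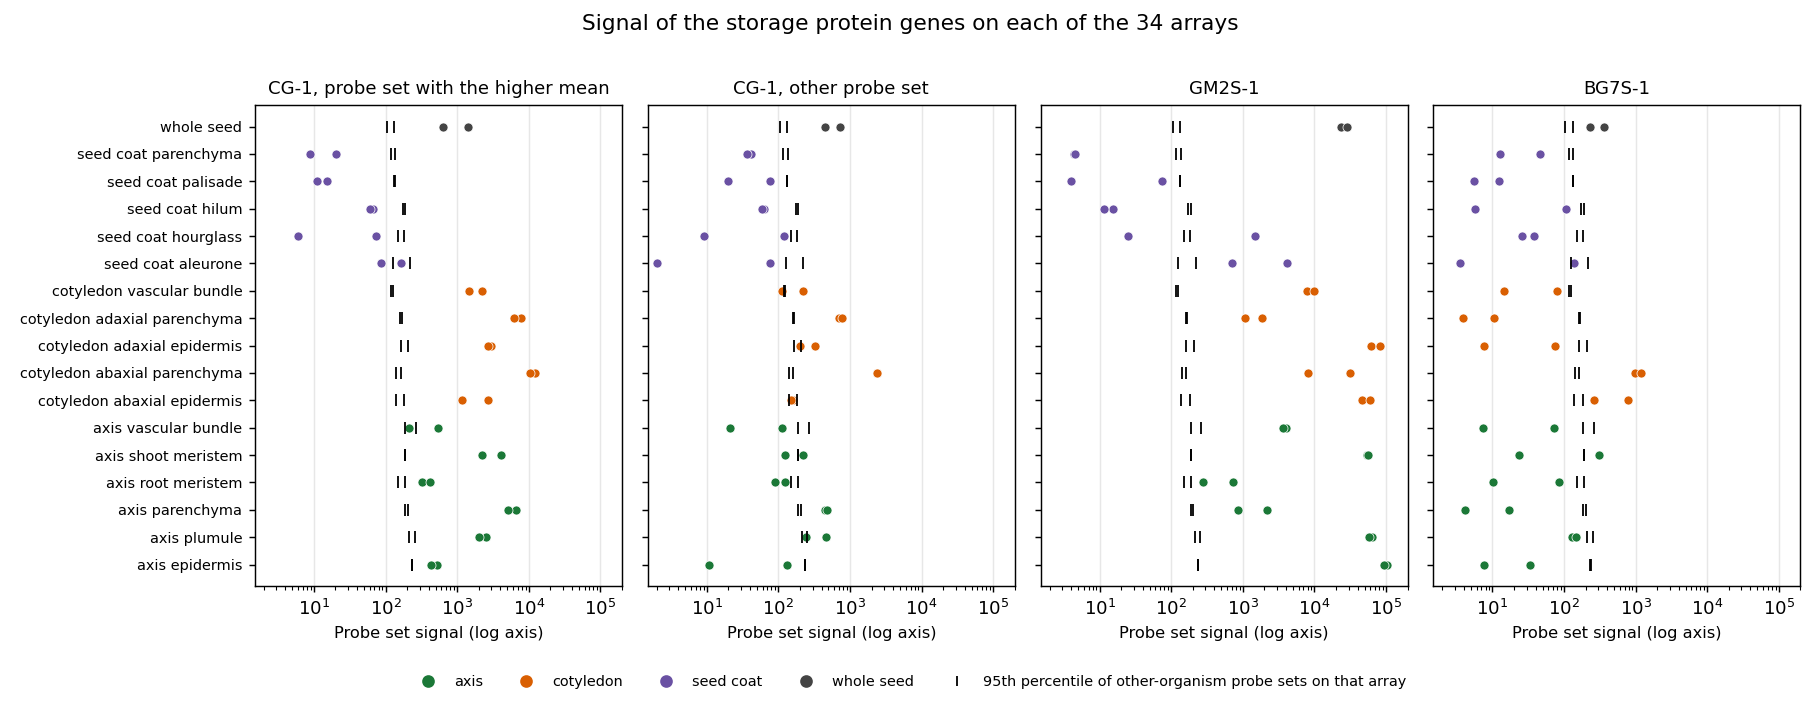
Signal of each probe set (log axis) on each of the 34 arrays, by group, with 2 points a group coloured by region and a black tick at the background of each array. CG-1 is brightest in the 3 parenchyma groups of the embryo, GM2S-1 in the epidermal groups, the plumule and the shoot meristem, and BG7S-1 rises above background mainly in the abaxial cotyledon.

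The question of which cell layer carries the transcripts was put by setting parenchyma against epidermis in each organ. In the cotyledon CG-1 was 3.94-fold higher in the parenchyma (1.98 ± 0.38, limma, adjusted p = 0.000467), with 4 parenchyma arrays at 6206 to 12393 and 4 epidermis arrays at 1171 to 2964. GM2S-1 went the other way and was 12.7-fold lower in the parenchyma (-3.67 ± 0.68, adjusted p = 0.000299), with 1057 to 30969 against 45443 to 81833. That fold averages 2 unlike sides. Mean signals of GM2S-1 in parenchyma and epidermis were 19538 and 52051 on the abaxial side, and 1462 and 71456 on the adaxial side. Neither gene's arrays overlapped between the layers. The storage marker GY1 did not separate the layers on the adaxial side, with means of 57257 in the parenchyma and 51169 in the epidermis, and the coat markers SCB1 and Ep were detected in the abaxial epidermis, as given above. The part of either in these results was not tested. The other CG-1 probe set was at least 5.87-fold higher in the parenchyma (2.63 ± 0.57, adjusted p = 0.00145), and BG7S-1 showed 0.11 ± 0.73 with overlapping arrays (adjusted p = 0.957). Of all probe sets tested 11.9% were called here. In the axis the same 2 genes parted more widely. CG-1 was 11.99-fold higher in the parenchyma (3.58 ± 0.54, adjusted p = 5.67e-05), with means of 5854 ± 1102 and 472 ± 63.6 (SD, n = 2). GM2S-1 was 70.5-fold lower there (-6.14 ± 0.97, adjusted p = 9.63e-05), with means of 1529 ± 937 in the parenchyma and 98465 ± 6838 in the epidermis (SD, n = 2). The other CG-1 probe set was at least 1.89-fold higher in the parenchyma (2.91 ± 0.80, adjusted p = 0.0226), a call that was lost without axis epidermis replicate 1 (1.67, adjusted p = 0.311) and without either axis parenchyma replicate (2.96 and 2.86, adjusted p = 0.0977 and 0.116). The background share of calls in the axis comparison was 7.61%. Both axis epidermis arrays were among the 5 with bright hybridization controls, 3.21 and 3.13 times the median over arrays, and the axis parenchyma arrays were at 1.40 and 1.39. The part of this difference in the axis result was not tested. Leaving out the bright arrays removes the whole axis epidermis group, so that refit does not cover this comparison.

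Whether the layer difference itself differed between cotyledon and axis was tested as an interaction. CG-1 gave -1.60 ± 0.66 (adjusted p = 0.222), the other CG-1 probe set -0.28 ± 0.98 (adjusted p = 0.934) and GM2S-1 2.47 ± 1.18 (adjusted p = 0.315), so no member was called, against 3.35% of all probe sets. The wider span in the axis was therefore not shown to differ from that in the cotyledon.

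**Figure D2:**
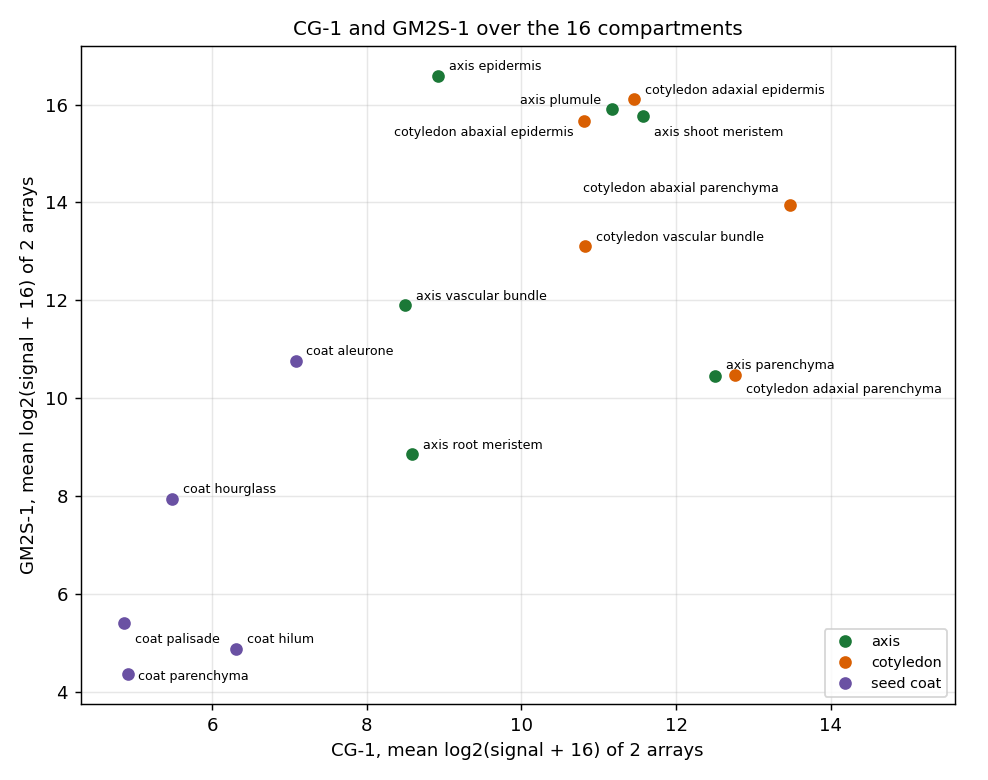
Mean log2(signal + 16) of 2 arrays for CG-1 (horizontal axis, brighter probe set) and GM2S-1 (vertical axis) in each of the 16 compartments, coloured by region. The seed coat layers lie at the left, and those other than the aleurone at the lower left. The axis epidermis is high for GM2S-1 and low for CG-1, and the axis and adaxial cotyledon parenchyma are high for CG-1 and low for GM2S-1.

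Against the vascular bundle, CG-1 was again the gene of the parenchyma. In the axis it was at least 14.6-fold higher in the parenchyma (4.01 ± 0.54, adjusted p = 1.18e-05), and in the cotyledon 4.91-fold higher (2.30 ± 0.47, adjusted p = 0.000961), with no overlap of arrays in either. The other CG-1 probe set gave at least 2.00-fold in the axis (2.79 ± 0.80, adjusted p = 0.0293) and at least 7.35-fold in the cotyledon (2.95 ± 0.70, adjusted p = 0.00397). Its axis call was lost without either parenchyma replicate (2.84 and 2.74, adjusted p = 0.116 and 0.139) or vascular bundle replicate 2 (1.90, adjusted p = 0.242), and its cotyledon call without vascular bundle replicate 1 (2.52, adjusted p = 0.104). GM2S-1 was not called in either organ, with -1.46 ± 0.97 in the axis (adjusted p = 0.45) and -0.90 ± 0.84 in the cotyledon (adjusted p = 0.629). BG7S-1, readable in the cotyledon only, showed 1.56 ± 0.90 (adjusted p = 0.331). The background was 7.22% in the axis and 10.7% in the cotyledon. In the interaction of this contrast with the organ, CG-1 had -1.72 ± 0.72 (adjusted p = 0.261) and GM2S-1 0.56 ± 1.28 (adjusted p = 0.907), and 3.04% of all probe sets were called.

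Between the sides of the cotyledon, BG7S-1 was called in the parenchyma and not in the epidermis. The abaxial groups are among the few through which it passed the filter on dim probe sets, so these differences were favoured. The gene was at least 6.11-fold higher in the abaxial than in the adaxial parenchyma (5.57 ± 1.03, limma, adjusted p = 0.00282), a comparison in which only 1.02% of all probe sets were called. The abaxial arrays read 984 and 1184 and the adaxial arrays 10.6 and 3.9, both below background. This call rested on 4 arrays and was narrowly lost without adaxial parenchyma replicate 2 (5.36, adjusted p = 0.0548), and held without each of the other 3. In the epidermis BG7S-1 read 775 and 265 on the abaxial side and 74.7 and 7.5 on the adaxial side, and was not called (3.35 ± 1.03, at least 2.35-fold, adjusted p = 0.0749), against a background of 3.52%. GM2S-1 was 11.2-fold higher in the abaxial parenchyma, and this did not pass either (3.48 ± 0.97, adjusted p = 0.0973). In the epidermis it showed -0.45 ± 0.97 (adjusted p = 0.906). CG-1 showed 0.71 ± 0.54 in the parenchyma (adjusted p = 1), where its arrays did not overlap, and -0.65 ± 0.54 in the epidermis (adjusted p = 0.665), where they did.

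Within the axis, the poles of the embryo differed for CG-1 and GM2S-1. In the root meristem GM2S-1 was 120-fold lower than in the shoot meristem (-6.91 ± 0.97, limma, adjusted p = 1.46e-05), with means of 499 ± 315 and 55609 ± 996 (SD, n = 2). CG-1 was 7.91-fold lower (-2.98 ± 0.54, adjusted p = 0.000442), with means of 372 ± 70.3 and 3165 ± 1333 (SD, n = 2). Arrays of the 2 meristems did not overlap for either gene. The other CG-1 probe set, at 88.8 and 125 in the root meristem and 124 and 219 in the shoot meristem, did not separate them (-0.58 ± 0.80, adjusted p = 0.773), and BG7S-1 showed -1.13 ± 1.03 (adjusted p = 0.622). Of all probe sets tested 7.46% were called. The plumule, which holds the first leaves above the shoot meristem, did not differ from it beyond the spread for CG-1 (-0.40 ± 0.54, adjusted p = 0.771), GM2S-1 (0.14 ± 0.97, adjusted p = 0.965) or BG7S-1 (0.44 ± 1.03, adjusted p = 0.878). The background of that comparison was 5.2%.

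Axis and cotyledon as regions were compared over compartment means, since the layers of a region are not replicates of each other. CG-1 was 3.16-fold higher in the cotyledon but not called (1.66 ± 0.76, adjusted p = 0.28), its other probe set showed 1.43 ± 0.66 (adjusted p = 0.286), and GM2S-1 showed 0.62 ± 1.52 (adjusted p = 0.886). The layers of each region spread widely, from compartment means of 499 to 98465 for GM2S-1 in the axis and 1462 to 71456 in the cotyledon. Of all probe sets 1.5% were called. Parenchyma set against parenchyma gave a like answer, with 0.61 ± 0.47 for CG-1 (adjusted p = 0.519), 1.77 ± 0.84 for GM2S-1 (adjusted p = 0.227) and 2.62 ± 0.90 for BG7S-1 (adjusted p = 0.0699), while 7.45% of all probe sets were called.

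As a mean over its layers, the seed coat was far below both embryo regions for CG-1 and GM2S-1. For GM2S-1 the aleurone mean (2445) was nevertheless above those of the axis parenchyma (1529), the adaxial cotyledon parenchyma (1462) and the root meristem (499). Against the axis, CG-1 was at least 6.83-fold lower (-4.48 ± 0.76, adjusted p = 0.000772) and its arrays did not overlap those of the axis. GM2S-1 was at least 29.4-fold lower (-6.57 ± 1.52, adjusted p = 0.00651), with overlap, since the coat reached 4185 and the root meristem fell to 276. The background share was 15.9%. When the hybridization control level entered the fit, the GM2S-1 difference from the axis was not called (-1.52, adjusted p = 0.531). Against the cotyledon the same 2 genes were lower (-6.14 ± 0.79 and -7.19 ± 1.59, adjusted p = 0.000107 and 0.00717), as was the other CG-1 probe set, at least 2.54-fold (-2.92 ± 0.69, adjusted p = 0.0109), with a background of 11.2%. GM2S-1 arrays of coat and cotyledon overlapped too, since the cotyledon fell to 1057 in the adaxial parenchyma. BG7S-1 had no seed coat array above background.

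Inside the seed coat GM2S-1 was detected in the aleurone, the layer next to the embryo that stores protein, and on 1 hourglass array. The aleurone read 704 and 4185, the hourglass cells 25.1 and 1461, and the palisade, hilum and parenchyma 4.0 to 73.7. The aleurone was at least 7.99-fold higher than the other coat layers (5.12 ± 0.76, limma, adjusted p = 9.54e-06), although the brighter hourglass array exceeded the dimmer aleurone array. This difference ran from 3.85 to 6.39 when each array was left out in turn. CG-1 was called as well (1.69 ± 0.43, adjusted p = 0.00383), but only the aleurone array at 164 was above background, no fold is given, and the call was lost without that array, aleurone replicate 2 (1.28, adjusted p = 0.13). Calls were common in this comparison, at 21.8% of all probe sets. Storage transcripts of the embryo were also present on these arrays, with GY1 and KTI3 summing to 2482 and 519 in the aleurone and to 965 and 4987 in the hourglass cells, against 21.2 to 767 in the other 3 layers. Both markers were above background on all 4 of the aleurone and hourglass arrays. In the hourglass cells the array with more GM2S-1 was the one with more of these markers, and in the aleurone it was the one with less. The coat markers AGL1L and SEP1 summed to 8933 and 6807 in the aleurone and 11317 to 25995 in the other layers. Aleurone replicate 1 had bright hybridization controls (2.26 times the median). The part of embryo RNA or of these controls in the result was not tested. In the comparison of the hilum with the other maternal layers, where 12.6% of all probe sets were called, no member had enough arrays above background to be read.

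Set against the abaxial cotyledon epidermis, an embryonic surface layer, the aleurone was lower for all 3 genes. CG-1 was at least 8.75-fold lower (-3.74 ± 0.54, limma, adjusted p = 7.73e-06), GM2S-1 29.7-fold lower (-4.89 ± 0.97, adjusted p = 0.000409) and BG7S-1 at least 2.58-fold lower (-3.11 ± 1.03, adjusted p = 0.0321). No arrays overlapped. The coat markers SCB1 and Ep were present in this epidermis too, and their part in the comparison was not tested. The BG7S-1 call was lost without abaxial epidermis replicate 1 (-2.36, adjusted p = 0.26) or aleurone replicate 2 (-1.62, adjusted p = 0.407), and with a pseudocount of 1 (adjusted p = 0.0673). The other CG-1 probe set showed -2.08 ± 0.80 (adjusted p = 0.0691) and was called without aleurone replicate 1 (-3.26, adjusted p = 0.0145), and the background was 18.8%.

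The whole seed lay inside the range of the compartments for every member. GM2S-1 read 28089 and 23170.3 there, CG-1 1430 and 636 by its brighter probe set and 454 and 736 by the other, and BG7S-1 228 and 364. On the log2 scale, where each compartment counts alike, GM2S-1 was higher than the mean of the compartments (3.26 ± 0.70, limma, adjusted p = 0.00103), while the mean signals themselves were 25630 and 23613. BG7S-1 (2.19 ± 0.75, adjusted p = 0.0317) and the other CG-1 probe set (1.92 ± 0.59, adjusted p = 0.0157) were called too, with mean signals of 296 against 145 and of 595 against 324. The brighter CG-1 probe set was not called (0.60 ± 0.40, adjusted p = 0.29), and its mean signals went the other way, with 1033 in the whole seed and 2360.4 over the compartments. No fold is given, since the mean of logarithms and the mean of signals differ this much. Without whole seed replicate 2 all 3 calls were lost (adjusted p = 0.0506 for GM2S-1, 0.318 for BG7S-1 and 0.0909 for CG-1), and without replicate 1 those of BG7S-1 (adjusted p = 0.119) and CG-1 (adjusted p = 0.223). The whole seed arrays had the dimmest hybridization controls (0.359 and 0.315 times the median), and 19.3% of all probe sets were called.

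**Figure D3:**
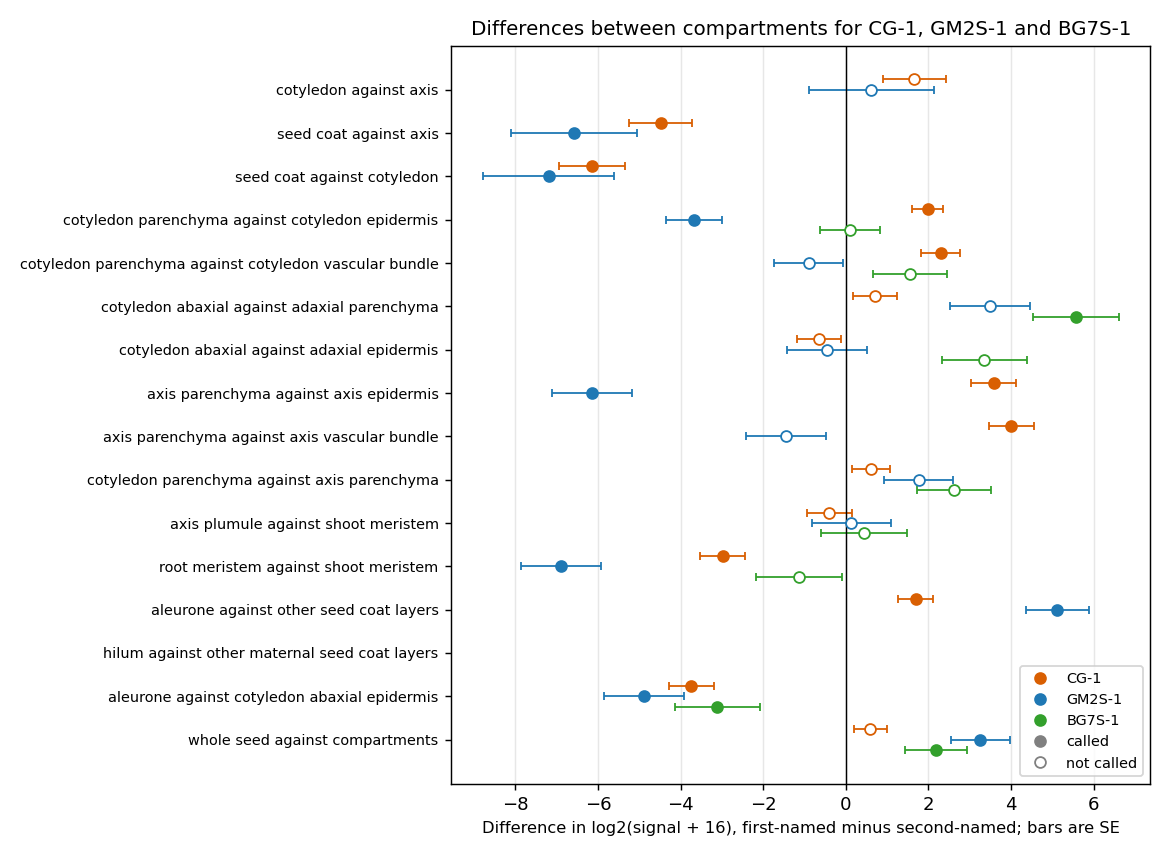
Difference in log2(signal + 16) with its SE for CG-1 (brighter probe set), GM2S-1 and BG7S-1 in the 16 comparisons of groups, first-named minus second-named, with filled points for called differences and no point where too few arrays were above background. CG-1 and GM2S-1 lie on opposite sides of 0 where parenchyma is set against epidermis, in the cotyledon and in the axis.

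Over these 16 comparisons the brighter CG-1 probe set was called in 9 of 15 that could be read, the other CG-1 probe set in 6 of 13, GM2S-1 in 8 of 15 and BG7S-1 in 3 of 9. The 2 CG-1 probe sets had the same direction in 14 of 16 comparisons and were both called in 5, while 4 were called by the brighter alone and 1, the whole seed, by the other alone. As a description over the 16 compartment means, which share arrays and scaling, Pearson's r was 0.87 between the CG-1 probe sets, 0.73 between CG-1 and GM2S-1, 0.41 between CG-1 and BG7S-1 and 0.45 between GM2S-1 and BG7S-1. The value for CG-1 and GM2S-1 includes the seed coat, where both are low outside the aleurone, as the plot of CG-1 against GM2S-1 shows. The values with BG7S-1 include 13 compartments in which that gene had no array above background. Whether CG-1 and GM2S-1 differed in a region difference was tested by exact permutation of the compartments, two-sided, with Benjamini-Hochberg adjustment over 9 tests. The other 6 tests set a gene against BG7S-1, which was below background on most arrays of all 3 regions, and are not read. CG-1 and GM2S-1 did not pass, with 2.09 for seed coat against axis (adjusted p = 0.471), 1.05 for seed coat against cotyledon (adjusted p = 0.745) and 1.04 for cotyledon against axis (adjusted p = 0.745).

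Among 886 other named genes, those whose compartment means were most like each member were listed by Pearson's r over the 16 compartments, which is a description of shared pattern only. For CG-1 these were P91 (0.94), the seed oleate desaturase gene FAD2-1A (0.93), CP3 (0.91), the vacuolar processing enzyme gene VPE (0.91) and the sucrose-binding protein gene SBP2 (0.90). FAD2-1A shared with CG-1 a high mean in the 3 parenchyma groups (15721 to 40868) and a low one in the axis epidermis (802). For GM2S-1 they were the NF-Y transcription factor gene NF-YA05 (0.89), the seed maturation protein gene PM12 (0.84), the lipoxygenase gene LOX3 (0.83), P89 (0.82) and the bZIP factor gene BZIP70 (0.82). NF-YA05 had its highest mean in the axis epidermis (21107), as GM2S-1 did, and 959 in the adaxial cotyledon parenchyma. LOX3, PM12 and P89 parted from GM2S-1 in the axis parenchyma, where their means were 79264, 62310 and 78188 and GM2S-1 had 1529. As for CG-1 and GM2S-1, these values of r include the seed coat layers. For BG7S-1 they were the glycinin gene GY5 (0.76), the cytochrome P450 gene CYP71A9 (0.69), the Bowman-Birk inhibitor gene BBI (0.64), the Kunitz inhibitor gene KTI1 (0.62) and the glutathione transferase gene GSTU41 (0.62). In 13 of the 16 compartments BG7S-1 had no array above background, so these values of r rest largely on levels that cannot be read. GY5, BBI and KTI1 had means of 33060, 33436 and 14968 in the abaxial cotyledon parenchyma and of 1571, 4875 and 1024 in the adaxial one, while CYP71A9 stayed at or below 145 in every compartment.

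Other seed storage genes, 10 in the list and 8 of them tested, followed the parenchyma and the embryo in part. Cotyledon parenchyma was higher than cotyledon epidermis for 4, namely GY2 (3.75 ± 0.40), GY5 (3.00 ± 0.50), the sucrose-binding protein gene LOC100787186 (2.90 ± 0.31) and SBP2 (2.01 ± 0.42). The list's median there was 1.76, beside 0.02 over all probe sets tested, of which 11.9% were called in either direction. In the axis the parenchyma was higher for 3, P34, a papain-family seed protein gene (4.60 ± 0.82), SBP2 (2.60 ± 0.59) and LOC100787186 (1.88 ± 0.43), with a median of 0.91 and a background of 7.61%. None of these 8 genes was called lower in the parenchyma of either organ. The abaxial cotyledon parenchyma was higher than the adaxial for 1, GY5 (4.54 ± 0.71), with a list median of 0.17 and a background of 1.02%. Seed coat was lower than cotyledon for 7 of 8 (median -4.66, beside -0.01 and 11.2% called over all probe sets). It was lower than axis for 2 of 8 (median -0.14, beside -0.08 and 15.9%), a share not far from the background. The whole seed was higher than the compartments for 6 of 8 (median 3.84, beside 0.01 and 19.3%). That is against a mean of logarithms in which each compartment, seed coat layers included, counts alike. The other RNA reagent of the whole seed cannot be told apart from tissue there.

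Genes that process and sort storage proteins were 9 in the list, of which 8 were tested. Parenchyma was higher than epidermis in the cotyledon for 1, the vacuolar processing enzyme gene VPE2 (3.44 ± 0.51, at least 7.49-fold), and in the axis for 1, the endoplasmic reticulum chaperone gene BIP4 (1.13 ± 0.22). At 1 of 8 in each, the list was near the background of 11.9% and 7.61%. Seed coat was lower than cotyledon for 2 of 8 (list median -0.18, background 11.2%), among them VPE (-4.62 ± 0.65). The aleurone was higher than the other coat layers for 2 of 8 (median 0.89), near the background of 21.8%, among them VPE (3.70 ± 0.26). The root meristem was lower than the shoot meristem for 1 of 8, VPE (-1.19 ± 0.32), with a list median of 0.36 and a background of 7.46%. These directions of VPE were those of GM2S-1 and of the brighter CG-1 probe set, and the list as a whole did not share them throughout. The regulators of seed filling that matched were LEC1-A, a subunit of an embryo NF-Y factor, and WRI1B, an AP2-type factor of the oil pathway. Both were lower in the seed coat than in the cotyledon (-5.22 ± 0.93 and -5.20 ± 0.54, background 11.2%). Only LEC1-A was called higher in the aleurone than in the other coat layers (3.63 ± 0.36, at least 6.36-fold, background 21.8%). LEC1-A, and not WRI1B, was also called higher in the root than in the shoot meristem (4.51 ± 0.45, at least 15.9-fold, background 7.46%), where CG-1 and GM2S-1 were lower. No oil body protein symbol matched the gene table.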

How the data were processed

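RNA from 34 samples was measured on Affymetrix arrays. The deposited table holds a linear intensity for each probe set. The authors made it with GCOS 1.3, per the submitters' processing notes, whose algorithm and settings these sources do not give. The mean of each array without its lowest and highest 2% was 500.1, so arrays had been scaled to a common mean. Signals were used as deposited, as log2 of the signal plus 16, which understates the differences of dim probe sets.

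A soybean probe set was tested if it exceeded the background on at least 2 arrays (28441 of 37593). R 4.3.3 and limma 3.58.1 (eBayes with trend) were used, and Benjamini-Hochberg adjustment ran over all probe sets tested. Regions were compared over the 16 compartment means, and all other comparisons came from 1 fit of the 17 groups. A fold is "at least" where no more of the dimmer side's arrays were above background than below it, and signals below background were then raised to it on that side. The fit was tested on simulated data. Figures were drawn in Python 3.11.15 with matplotlib 3.10.9 and pandas 2.3.3.

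Genes were named from the platform's annotation, which gives 8677 soybean probe sets a single gene, 370 several and 28546 none. A gene with several probe sets was read by the one with the highest mean signal, and CG-1 by both. All member probe sets were named, with the 5 genes most like each by Pearson's r and up to 4 called genes a list. The members, gene lists and markers were chosen with earlier results of these data known. Alternatives were another pseudocount, no filter, quantile normalization, the replicate number as a block, the hybridization control level as a covariate, and leaving out bright arrays, single arrays or compartments.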

Additional observations from a re-analysis of the deposited data

Results flagged for a closer look

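One probe set that belongs to no member stood out. It is tied to both CG-1 and CG-3, another beta-conglycinin subunit gene, so it was left out of the comparisons above, and it was above background on 32 of 34 arrays. Over the 16 compartments its means followed the brighter CG-1 probe set (r = 0.96) and the other one less closely (r = 0.81). In the axis it was 24.4-fold higher in the parenchyma than in the epidermis (4.61 ± 0.56, limma, adjusted p = 2.02e-06), with arrays at 59422 and 61170.1 against 3927 and 1535. In the cotyledon the difference was 0.74 ± 0.39 and not called (adjusted p = 0.236), with 51055 to 61962 in the parenchyma and 29052 to 35600 in the epidermis. The interaction of layer and organ was called for this probe set (-3.87 ± 0.68, adjusted p = 0.000826), which it was not for CG-1 alone. In the seed coat, where the CG-1 probe sets were mostly below background, it read 66.7 to 3802, with the highest value on hourglass replicate 2. Which of the 2 genes gave this signal cannot be told apart.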

How the results depend on the processing

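CG-1 and GM2S-1 kept their calls in parenchyma against epidermis and root against shoot meristem whichever array was left out (CG-1 3.39 to 3.78 in the axis and 1.68 to 2.28 in the cotyledon, GM2S-1 -6.80 to -5.48 and -4.15 to -3.19). BG7S-1 and the dimmer CG-1 probe set lie near background and changed most. The cause of the changes below was not tested. With a pseudocount of 1, BG7S-1 turned to -0.2497 in cotyledon parenchyma against epidermis and lost its calls for the aleurone against the epidermis (-4.187) and the whole seed (2.897, adjusted p = 0.0697), and the dimmer CG-1 probe set lost 4 calls (adjusted p = 0.054 to 0.115). That probe set gained a call for aleurone against abaxial epidermis with a pseudocount of 1 (-3.37, adjusted p = 0.0472), with quantile normalization (-2.24, adjusted p = 0.042) and without bright arrays (-3.26, adjusted p = 0.0034). Quantile normalization turned GM2S-1 to -0.2254 for plumule against shoot meristem. The interaction of parenchyma over vascular bundle turned for the dimmer CG-1 probe set with a pseudocount of 1 (-0.1396), with quantile normalization (-0.2396) and without bright arrays (-0.7273). The cotyledon against axis count of 426 became 226 without bright arrays and 25 with the control level as a covariate, which also took the seed coat against axis count from 4512 to 2296 and GM2S-1 there to -1.522 (adjusted p = 0.531). Without bright arrays BG7S-1 passed for the abaxial against adaxial epidermis (3.351) and for cotyledon against axis parenchyma (2.624), at an adjusted p of 0.0468 in each.

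Deviations of same-numbered samples from their group means correlated at -0.0874 to 0.153 over 136 pairs of groups, of which 4 were over 0.1. Whether same-numbered samples share seeds cannot be told from this, since noise of single arrays also keeps such correlations low. A replicate block changed 0 of 58 calls of the members. Between regions it was fitted on array values, with the compartment as a random block, in place of the compartment means. The cotyledon against axis count of 1030 in that fit thus mixes the block with this change.

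Leaving out arrays or compartments in turn gave the following ranges of called probe sets, which are partly set by having fewer samples. Between regions, cotyledon against axis gave 146 to 562. Against axis epidermis the axis parenchyma gave 1213 to 2427, and against the axis vascular bundle 1239 to 2531. The cotyledon gave 1925 to 2695 for parenchyma against vascular bundle, 144 to 190 for abaxial against adaxial parenchyma and 544 to 947 for the epidermis. Cotyledon against axis parenchyma gave 1247 to 1831, plumule against shoot meristem 801 to 996, and root against shoot meristem 1214 to 1549. The hilum gave 2132 to 3557, the whole seed 2347 to 5694, and the interactions 591 to 1341 (epidermis) and 511 to 1262 (vascular bundle).

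Among the members, the calls lost on leaving out an array are given with the results. BG7S-1 ranged from 5.364 to 5.783 between sides of the parenchyma, -4.594 to -1.621 for aleurone against epidermis, and 1.872 to 2.512 for the whole seed. GM2S-1 ranged from 3.097 to 3.42 for the whole seed. CG-1 ranged from 1.275 to 2.108 for aleurone against other coat layers. Uncalled differences that changed sign were those of GM2S-1 for cotyledon against axis (-0.2593 to 1.465) and the vascular interaction (-0.1027 to 1.22), CG-1 for plumule against shoot meristem (-0.8383 to 0.04329), and BG7S-1 for that comparison (-1.078 to 1.96), root against shoot meristem (-2.65 to 0.3876) and cotyledon parenchyma against epidermis (-0.3807 to 0.5935). The dimmer CG-1 probe set did so in both interactions (-1.516 to 0.9588 and -0.7273 to 1.045). The differences from BG7S-1, which are not read since that gene was mostly below background, ranged for CG-1 from -4.437 to -3.676 (seed coat against axis) and -4.982 to -4.221 (against cotyledon), and for GM2S-1 from -6.703 to -5.591 and -6.207 to -5.096.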
